A study of Mus musculus with 18 samples.

Results

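The genes described here encode the first steps of lipopolysaccharide (LPS) sensing in macrophages: 2 proteins that present LPS to its receptor (Cd14, Ly96), 3 adaptors (Myd88, Tirap, Ticam1), the 4 kinases and pseudokinases of the IRAK family (Irak4, Irak1, Irak2, Irak3) and the ubiquitin ligase Traf6. They were taken as a list of symbols, 10 of the 24052 genes in the count tables, and all 10 were found in both tables and passed the filter on low counts in both experiments. The cells were bone marrow-derived macrophages of C57BL/6 mice, matured for 7 days in M-CSF at 20 ng/ml, which drives marrow precursors to become macrophages. In experiment 1, wild-type cells had 4 treatments with 3 libraries each. They were vehicle for 12 h (vehicle), 0.25 mM dimethyl itaconate for 12 h (DI), vehicle for 12 h and then 100 ng/ml E. coli 0111:B4 LPS for 4 h (LPS), and dimethyl itaconate for 12 h and then the same LPS for 4 h (DI+LPS). Dimethyl itaconate is a membrane-permeable ester of itaconate, a metabolite that activated macrophages make. In experiment 2, macrophages of genotype Irg1-/- or WT, with 3 libraries each, all received 100 ng/ml LPS with 50 ng/ml murine IFNg for 24 h, so no library of that experiment shows unstimulated cells. Irg1, listed as Acod1, is the enzyme that makes itaconate, and its loss was not restricted to a cell type or induced, as far as the labels say.

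As background, LPS is extracted from bacterial membranes and handed by CD14 to MD-2, the product of Ly96, which holds it against the receptor TLR4. At the plasma membrane TIRAP docks MyD88 to the receptor, and MyD88 stacks with IRAK4 and then with IRAK1 or IRAK2 into a signalling complex that activates TRAF6 and, through it, NF-kB and the MAP kinases. From endosomes the adaptor TRIF, the product of Ticam1, starts the arm that leads to type I interferon. IRAK3, also called IRAK-M, is a pseudokinase of myeloid cells best known as a brake on this pathway, and IRAK2 is known for sustaining late MyD88 signalling.

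Sequence before the annotated start sites was matched in RefSeq (GRCm38.p6) for 8 of the 10 genes. Below are the 250 bases upstream of the start of 3 of these genes, 5′ to 3′ on the strand of the gene: Irak1 (chrX:74023922-74024171, minus strand, the first of its annotated starts), the one of the 10 genes that differed most between LPS and DI+LPS, and Irak2 (chr6:113638217-113638466, plus strand) and Myd88 (chr9:119340019-119340268, minus strand), which rose with LPS. Capitals mark every match to 5 motifs searched on both strands: the NF-kB consensus (in Irak1), the antioxidant response element core TGACNNNGC (in Irak2), the interferon-stimulated response element core (in Myd88), which is GAAA repeated after 2 free bases, the AP-1 site TGANTCA and the PU.1 core GAGGAAG (in none of these 3).
Irak1: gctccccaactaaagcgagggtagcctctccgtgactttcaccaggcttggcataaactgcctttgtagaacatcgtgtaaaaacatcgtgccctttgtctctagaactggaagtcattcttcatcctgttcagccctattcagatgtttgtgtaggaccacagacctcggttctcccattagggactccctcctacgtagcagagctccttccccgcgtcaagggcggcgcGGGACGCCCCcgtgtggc
Irak2: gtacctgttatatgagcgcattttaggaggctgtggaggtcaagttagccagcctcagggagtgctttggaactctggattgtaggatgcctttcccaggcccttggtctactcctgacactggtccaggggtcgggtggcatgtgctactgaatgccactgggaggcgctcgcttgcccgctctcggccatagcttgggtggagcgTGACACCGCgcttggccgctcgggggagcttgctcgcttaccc
Myd88: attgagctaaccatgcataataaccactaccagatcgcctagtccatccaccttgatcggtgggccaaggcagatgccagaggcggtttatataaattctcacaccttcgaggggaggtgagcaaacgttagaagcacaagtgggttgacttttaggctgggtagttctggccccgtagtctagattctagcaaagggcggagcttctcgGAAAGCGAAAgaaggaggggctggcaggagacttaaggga

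The NF-kB match in Irak1, GGGACGCCCC, lay 18 to 9 bases before that start, and was the only one among the 8 genes, while 7.25% of 32851 upstream windows of this length hold one. The antioxidant core in Irak2 lay 43 to 35 bases before its start. Irak4 held another, 235 to 227 bases before its start, and 10.2% of all windows hold one. The interferon-element core of Myd88 lay 40 to 31 bases before its start, a match that 2.98% of all windows hold. The PU.1 core was found in Ticam1 and at 2 places in Traf6 (10.6% of all windows), the AP-1 site in none of the 8 (6.75%), and no motif was found in Tirap or Irak3. The printed sequences are thus all ones with a match, and Irak3, which also rose with LPS, is not printed. These matches describe letters in a short window and say nothing on whether a factor binds there.

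Total counts per library ran from 955718 to 7629669 in experiment 1 and from 3088644 to 5491684 in experiment 2, and in experiment 1 the 10 genes together took 0.0426% to 0.115% of each library. Levels are CPM, counts scaled to a common library total, after TMM, which corrects the totals for composition. Counts come from 3′ ends and are not set per length, so levels are compared between groups and not between genes. Shares and ratios of counts are likewise read by how they differ between groups. LPS replicate 3 stood apart: it was the least deep library at 955718 counts, Prdx1 alone made up 17.6% of it, and 3 counts in it correspond to 5.45 CPM. Prdx1 made up 3.8% and 3.3% of LPS replicates 1 and 2, and 9.27%, 8.70% and 14.1% of the DI+LPS libraries. Correlation of log2 CPM between replicates was 0.782 to 0.890 in the LPS group and at least 0.933 in each other group. Values that moved most without that library are given with and without it. Exons of Myd88, Irak2, Irak3 and Tirap overlap genes on the opposite strand and those of Irak1 overlap 2 microRNAs, so their levels could hold some reads of these. The targeted gene matched the labels of experiment 2, with Acod1 at 14.8 to 31.4 CPM in Irg1-/- and 4131 to 4665 CPM in WT. All 8 macrophage markers were detected in every group (Adgre1, Csf1r, Cd68, Itgam, Mertk, Fcgr1, Lyz2, Mrc1). Of the markers of other cells, Ncr1, Gzma and Prf1 (natural killer and cytotoxic cells), Pax5 (B cells), Flt3 (dendritic cells) and Ms4a2 and Fcer1a (mast cells) were at 0 in all libraries, while other genes of the same lists were detected. The summed T and natural killer cell list was at 3.93 to 19.2 CPM in LPS libraries and at most 0.932 CPM in the other groups of experiment 1, and at most 4.31 CPM in experiment 2. The mast cell list ran from 0 to 21.8 CPM in LPS libraries, where 4 of its 6 genes were at 0, and reached at most 2.35 CPM elsewhere. Few counts can make such a sum in LPS replicate 3, where 3 counts correspond to 5.45 CPM. The B cell list reached at most 7.86 CPM in any library. The dendritic cell list was at most 13.6 CPM in experiment 1 and at 16.4 to 24.2 CPM in experiment 2. The stromal list was at 20.8 to 69.0 CPM in experiment 1 and at 9.15 to 19.2 CPM in experiment 2. The neutrophil list, with 7 genes matched, was at 141 to 377 CPM in experiment 1, above each of these other lists. In experiment 2 it was at 8.29 to 15.6 CPM. Their part in the differences between groups was not tested. In bulk RNA, fewer cells of a kind and less RNA per cell cannot be told apart.

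**Figure D1:**
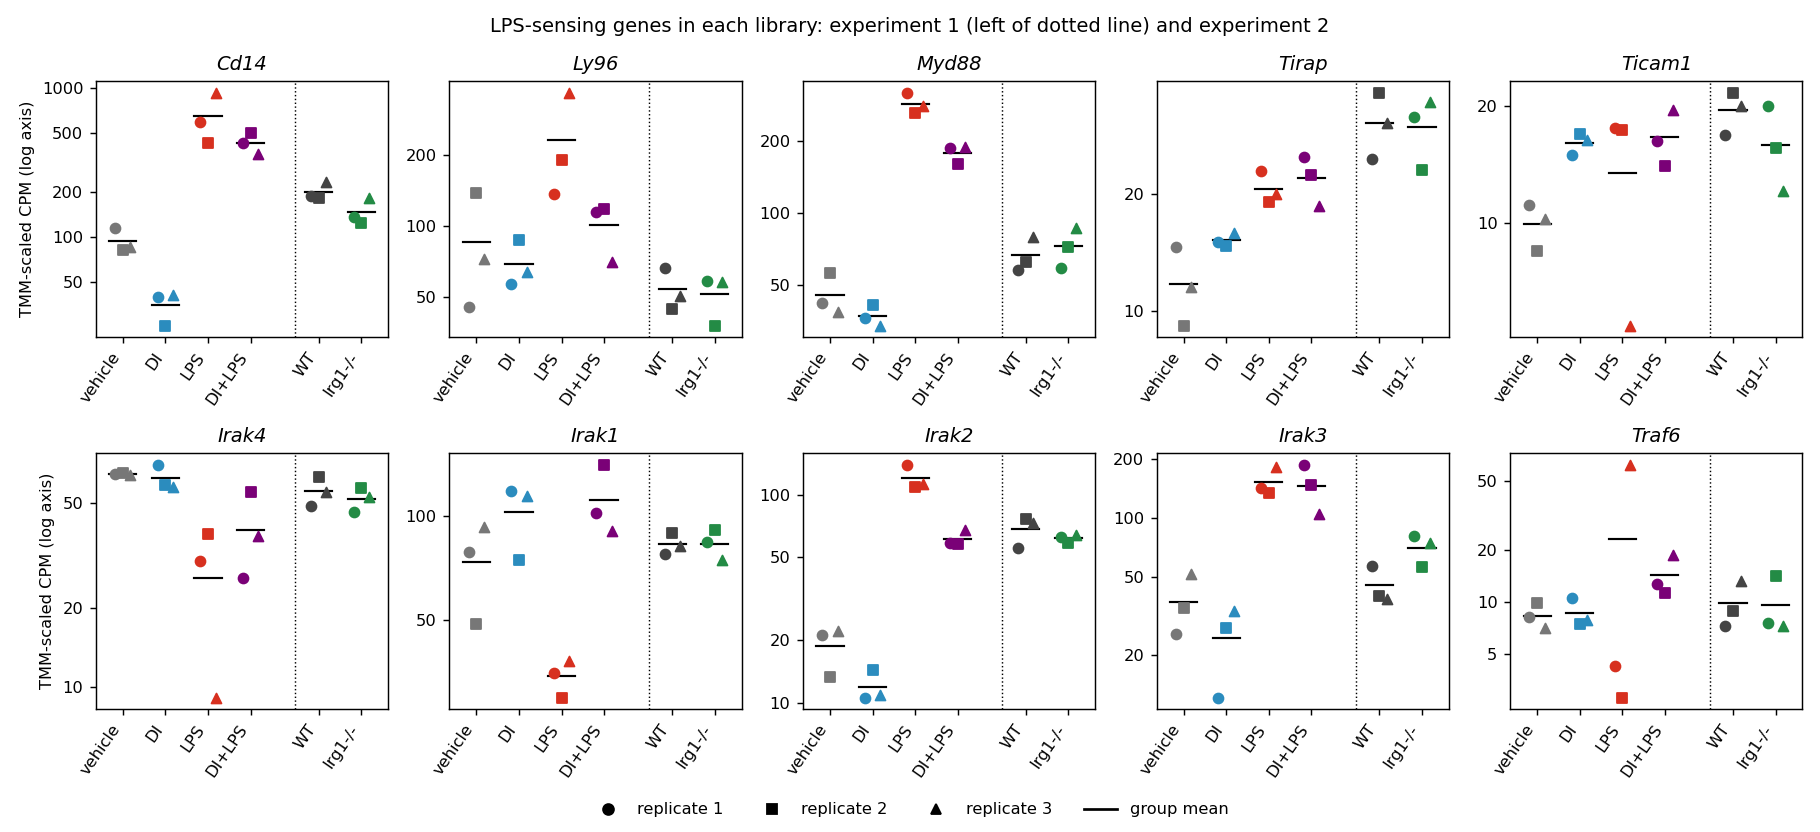
TMM-scaled CPM (log axis) of the 10 genes in each library, with marker shape for the replicate number and a bar for the group mean (n = 3). Irak2 and Myd88 are high after LPS and lower with DI+LPS, Irak1 is lowest in the 3 LPS libraries of experiment 1, and LPS replicate 3 lies far from the other LPS libraries for Traf6, Irak4 and Ticam1.

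LPS against vehicle asks how the sensing machinery itself responded to its ligand after 4 h. Cd14, Myd88, Irak2, Irak3 and Ly96 rose, and Irak1 and Irak4 fell, so 5 of the 10 genes were higher and 2 lower at an adjusted p under 0.05 (edgeR quasi-likelihood test, Benjamini-Hochberg over all 10285 genes tested). Over all genes tested, 16% were called higher and 18.4% lower, 34.3% in all. Every LPS library was above every vehicle library for 5 of the 10 genes and below for 2, against 16.6% and 27.4% of all genes (44% in all). The median log2 fold change of the 10 was 1.29, against -0.24 over all genes. Without LPS replicate 3 the same 7 genes were called, 5 higher and 2 lower. With only the vehicle and LPS libraries in the fit, 4 were called, and Ly96, Irak1 and Irak4 were lost at adjusted p = 0.062, 0.074 and 0.085 (edgeR). Scaled by library totals alone, the log2 values were 1.74 for Cd14, 1.70 for Myd88, 1.70 for Irak2, 1.04 for Irak3, -2.09 for Irak1 and -2.13 for Irak4, all with adjusted p at most 0.031.

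Of the proteins that present LPS, Cd14 (Entrez gene 12475, chromosome 18 from 36725064 to 36726815 in GRCm38) had 115, 81.3 and 86.0 CPM in the 3 vehicle libraries and 586, 425 and 924 CPM after LPS. The groups lay far apart, and the fold change was 6.83 (log2 2.77 ± 0.34 SE, adjusted p = 5.8e-06 by edgeR). Ly96 (Entrez gene 17087, chromosome 1 from 16688456 to 16709605), the MD-2 subunit that binds LPS directly, had 45.4, 138 and 72.5 CPM in vehicle and 136, 190 and 369 CPM after LPS. Its groups overlapped, since vehicle replicate 2 was above LPS replicate 1. The fold change of 2.70 passed (log2 1.43 ± 0.42, adjusted p = 0.014 by edgeR), but its size leaned on single libraries. With 1 library left out it ran from log2 0.975, without LPS replicate 3, to 1.95. It did not pass without vehicle replicate 1 (adjusted p = 0.075 by edgeR) or vehicle replicate 3 (adjusted p = 0.06). Scaled by library totals alone it was log2 0.41 (adjusted p = 0.36).

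Among the adaptors only Myd88 passed. Myd88 (Entrez gene 17874, chromosome 9 from 119335934 to 119340018), the adaptor used by nearly all Toll-like receptors and by the interleukin-1 receptor, had 42.1, 56.1 and 38.8 CPM in vehicle and 318, 261 and 280 CPM after LPS. Every LPS library was above every vehicle library, by 6.30-fold on the fitted scale (log2 2.65 ± 0.28, adjusted p = 1.1e-06 by edgeR). Tirap (Entrez gene 117149, chromosome 9 from 35184391 to 35200291), which bridges MyD88 to TLR4, was at 11.8 ± 2.70 CPM (SD, n = 3) in vehicle and 20.6 ± 1.97 CPM after LPS, with no overlap of the groups, and did not pass (log2 0.80 ± 0.35, adjusted p = 0.088 by edgeR). Ticam1 (Entrez gene 106759, chromosome 17 from 56269462 to 56276767), the adaptor of the interferon arm, was at 9.97 ± 1.36 and 13.5 ± 6.95 CPM (log2 0.54 ± 0.41, adjusted p = 0.33 by edgeR). LPS replicate 3 held 3 counts of it, which is the count taken here as a floor, and without that library the difference was log2 0.83 (adjusted p = 0.074 by edgeR). In the same libraries, the log2 ratio of Myd88 to Ticam1 counts, which uses no scaling factor, was 1.91, 2.70 and 1.91 in vehicle and 4.17, 3.89 and 5.46 after LPS, so the ratio of the 2 adaptors was higher in each LPS library than in any vehicle library. The pairs for ratios were chosen with results of these data known, so this is a description and no separate support for the Myd88 call. Of the other ratios taken, only that of Cd14 to Ly96 overlapped between vehicle and LPS. It was 1.339, -0.763 and 0.245 in vehicle and 2.105, 1.158 and 1.324 after LPS.

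The IRAK family split in opposite directions. Irak2 (Entrez gene 108960, chromosome 6 from 113638467 to 113695026) had 21.3, 13.3 and 22.1 CPM in vehicle and 139, 109 and 113 CPM after LPS, a 6.33-fold increase (log2 2.66 ± 0.32, adjusted p = 3.7e-06 by edgeR). Irak3 (Entrez gene 73914, chromosome 10 from 120141648 to 120202130), the inhibitory member, had 25.5, 34.7 and 52.2 CPM in vehicle and 143, 135 and 182 CPM after LPS, a 4.07-fold increase (log2 2.02 ± 0.39, adjusted p = 6e-04 by edgeR). Neither gene's groups overlapped. Irak1 (Entrez gene 16179, chromosome X from 74013914 to 74023921), a kinase that is modified and degraded once the receptor signals, had 78.8, 48.6 and 93.2 CPM in vehicle and 35.1, 29.8 and 38.1 CPM after LPS. The groups did not overlap and the fold change was 2.17 downward (log2 -1.12 ± 0.34, adjusted p = 0.015 by edgeR). Irak1 did not pass without vehicle replicate 3 (adjusted p = 0.076) or LPS replicate 2 (adjusted p = 0.051). Irak4 (Entrez gene 266632, chromosome 15 from 94543613 to 94568317), the kinase that starts the cascade, had 64.5, 64.9 and 63.9 CPM in vehicle and 30.1, 38.2 and 9.08 CPM after LPS, where replicate 3 rested on 5 counts. It was 2.33-fold lower (log2 -1.22 ± 0.39, adjusted p = 0.021 by edgeR), and log2 -0.89 without that library, where it still passed.

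Shares within a library do not depend on scaling between libraries. Of the summed counts of the 4 IRAK genes, Irak1 made up 41.4%, 30.1% and 40.3% in vehicle and 10.1%, 9.53% and 11.2% after LPS. Irak4 went from 33.9%, 40.2% and 27.6% to 8.67%, 12.2% and 2.66%. Irak2 was at 8.21% to 11.2% in vehicle and 33.0% to 40.1% after LPS, and Irak3 at 13.4% to 22.6% and 41.1% to 53.2%. The ranges of vehicle and LPS libraries were apart for all 4 genes. Shares in a library are tied to each other, so rises of Irak2 and Irak3 lower the Irak1 and Irak4 shares even at unchanged levels. The shares thus describe the mix of the 4 genes and give no separate support for a fall of Irak1 or Irak4. The exact 95% binomial intervals of the Irak1 share, which cover counting error only, were 8.34% to 12.1%, 7.22% to 12.3% and 7.05% to 16.6% in the LPS libraries.

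**Figure D2:**
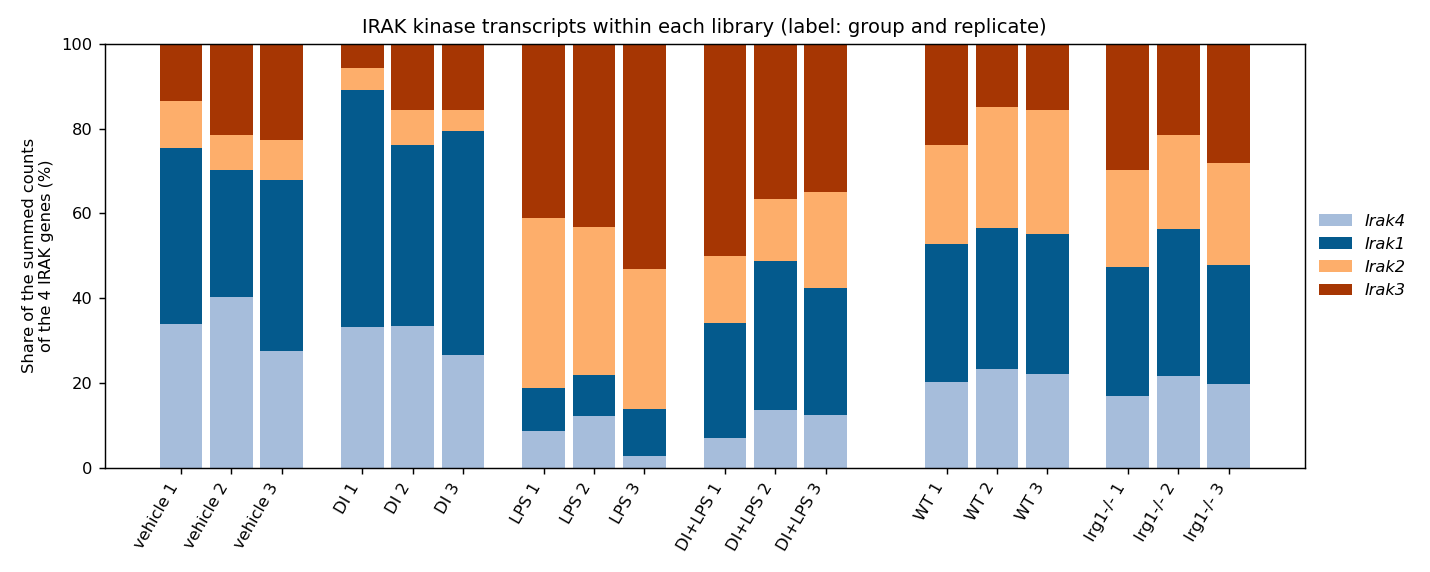
Share of the summed counts of the 4 IRAK genes (%) that each gene took, 1 stacked bar per library. The catalytic members Irak4 and Irak1 each take a larger share of every vehicle and DI bar than of any LPS bar, and Irak2 and Irak3 each take a smaller one. The Irak1 share is 27.2% to 35.1% in the DI+LPS bars against 9.53% to 11.2% in the LPS bars.

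Traf6 (Entrez gene 22034, chromosome 2 from 101678420 to 101701668), the ligase to which the IRAK complex hands the signal, did not pass (log2 1.14 ± 0.79, adjusted p = 0.28 by edgeR), and its value was set by 1 library. It had 8.16, 9.86 and 7.05 CPM in vehicle and 4.30, 2.81 and 61.7 CPM after LPS, from 13, 5 and 34 counts. Without LPS replicate 3 the estimate turned to log2 -1.14 (adjusted p = 0.086 by edgeR).

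LPS was also compared in cells that had received dimethyl itaconate, DI+LPS against DI, which asks whether the same genes responded after the compound. Of the 10 genes 4 were called higher, Cd14, Irak3, Irak2 and Myd88, and none lower, against 11.4% and 7.56% of all genes tested (18.9% in all). Cd14 had 39.4, 25.4 and 40.8 CPM with DI and 427, 494 and 359 CPM with DI+LPS, a 12.1-fold increase (log2 3.60 ± 0.35, adjusted p = 6e-07 by edgeR; log2 2.997 with library totals alone). Irak3 had 12.1, 27.4 and 33.5 CPM with DI and 187, 147 and 106 CPM with DI+LPS, 6.02-fold higher (log2 2.59 ± 0.39, adjusted p = 9.2e-05 by edgeR). Irak2 was 5.16-fold and Myd88 4.79-fold higher (adjusted p = 1.9e-05 and 8.8e-06 by edgeR), and none of these 4 genes had overlapping groups. Irak1 had 118, 74.6 and 114 CPM with DI and 102, 141 and 90.7 CPM with DI+LPS, overlapping groups with a log2 difference of 0.12 ± 0.31 (adjusted p = 0.85 by edgeR). Irak4 was at 61.9 ± 6.81 and 39.3 ± 14.6 CPM, with no overlap, and did not pass (log2 -0.66 ± 0.37, adjusted p = 0.25 by edgeR). With library totals as the only scaling it was called lower (log2 -1.26, adjusted p = 0.032), which makes the split 4 higher and 1 lower there. For Ly96, Tirap, Ticam1 and Traf6 the log2 differences were 0.54, 0.53, 0.05 and 0.71, with adjusted p from 0.31 to 0.95. Of the 10 genes 6 had every DI+LPS library above every DI library, the 4 called ones, Tirap and Traf6, and 1 had every library below, while 22.3% of all genes lay above and 22.3% below (44.6% in all).

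**Figure D3:**
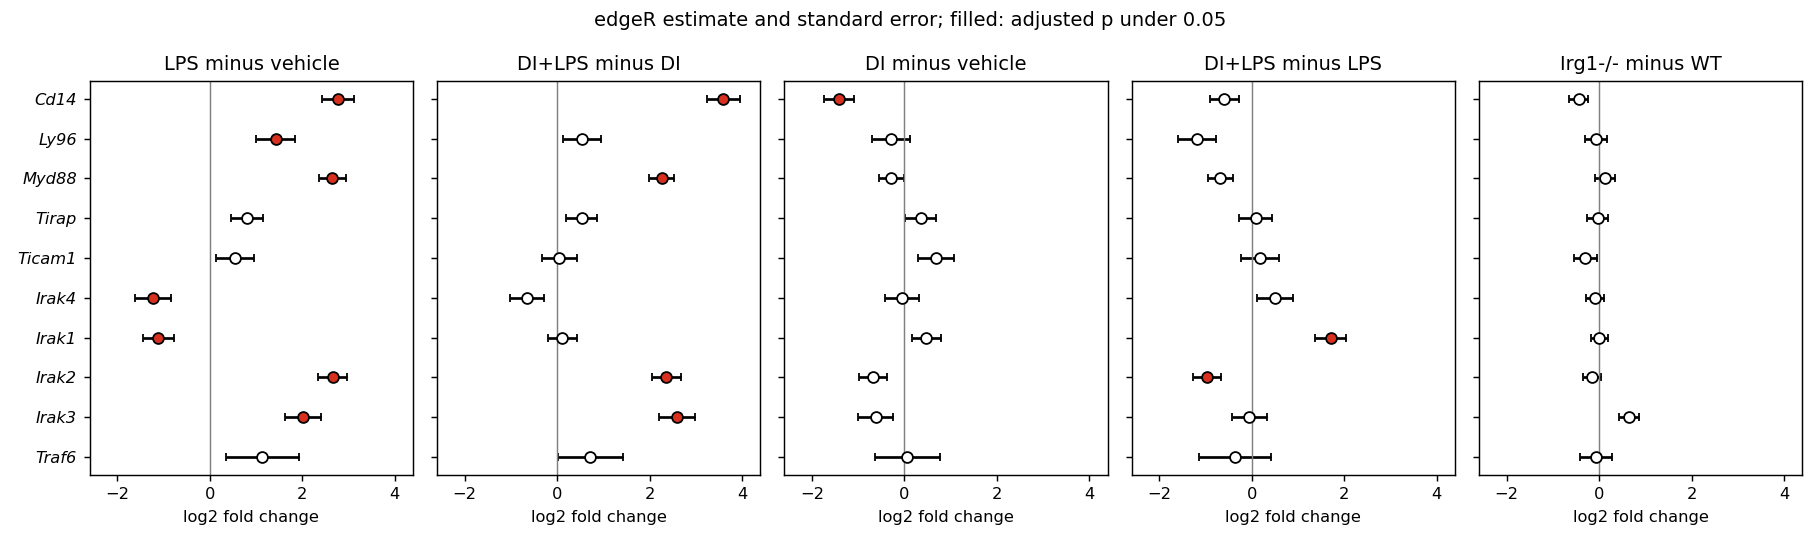
log2 fold change of each gene from the edgeR fit with its standard error (horizontal bars), 1 panel per comparison, filled where the adjusted p was under 0.05. Irak1 is to the left of 0 for LPS minus vehicle and to the right for DI+LPS minus LPS, while Cd14, Myd88, Irak2 and Irak3 are to the right of 0 in both LPS panels.

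The comparison of DI+LPS with LPS asks what the compound did to the stimulated state. Irak1 was higher and Irak2 lower with the compound, 2 of the 10 genes, against 8.38% of all genes called higher and 7.53% called lower (15.9% in all). Irak1 had 102, 141 and 90.7 CPM with DI+LPS and 35.1, 29.8 and 38.1 CPM with LPS, so each library with the compound was above any without it. The fold change was 3.26 (log2 1.71 ± 0.34, adjusted p = 0.0023 by edgeR). It passed in all 12 fits that left out a library of the experiment, where it lay between 1.51 and 1.86, and in all 6 other settings, with adjusted p at most 0.018. In DI+LPS libraries the share of Irak1 among IRAK counts was 27.2%, 35.1% and 30.1%, and the log2 ratio of Irak2 to Irak1 counts was -0.80, -1.27 and -0.41, against 1.99, 1.87 and 1.54 with LPS and -1.89, -1.86 and -2.07 with vehicle. The DI+LPS libraries thus lay between the vehicle and LPS libraries on this ratio, with no overlap with either. With DI alone it was -3.47, -2.37 and -3.39, below every vehicle library, so the ratio was lower with the compound both with and without LPS. The pair was chosen with results of these data known. It sets the 2 genes called in this comparison against each other, so the ratio is a description and no separate support for those calls.

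Irak2 had 58.6, 58.1 and 68.0 CPM with DI+LPS and 139, 109 and 113 CPM with LPS, 1.96-fold lower (log2 -0.97 ± 0.30, adjusted p = 0.034 by edgeR). The groups were apart, but the call was thin. It was lost in 9 of the 12 fits without 1 library, at adjusted p from 0.05 to 0.14 (it held without LPS replicate 3, vehicle replicate 2 or DI replicate 2). It was also lost with only these 2 groups in the fit (adjusted p = 0.093), with no filter on low counts (0.092) and with library totals as the only scaling (0.12). Myd88 followed the same order of levels, 187, 161 and 189 CPM with DI+LPS against 318, 261 and 280 CPM with LPS, with no overlap, and did not pass (log2 -0.68 ± 0.27, adjusted p = 0.095 by edgeR). DESeq2 called it lower (log2 -0.76, adjusted p = 0.0059). Ly96 had 114, 118 and 70.2 CPM with DI+LPS and 136, 190 and 369 CPM with LPS, again with no overlap and without passing (log2 -1.19 ± 0.42, adjusted p = 0.064 by edgeR). Without LPS replicate 3 its difference was log2 -0.71 (adjusted p = 0.19 by edgeR). Ly96 passed in 4 other settings. These were DESeq2 (log2 -1.29, adjusted p = 0.028) and 3 edgeR fits: no filter on low counts (adjusted p = 0.025), without vehicle replicate 2 (0.045) and without LPS replicate 1 (0.035). Of the 10 genes 3 had every DI+LPS library below every LPS library (10.7% of all genes) and 1 had every such library above (18.9% of all genes, 29.6% for both).

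The brake Irak3 did not differ detectably between these groups: it was at 147 ± 40.9 CPM with DI+LPS and 153 ± 25.0 CPM with LPS (log2 -0.05 ± 0.37, adjusted p = 0.95 by edgeR). Cd14 was at 427 ± 67.4 and 645 ± 255 CPM (log2 -0.59 ± 0.32, adjusted p = 0.23), and Irak4 at 39.3 ± 14.6 and 25.8 ± 15.0 CPM (log2 0.51 ± 0.39, adjusted p = 0.42). Without LPS replicate 3 these differences were log2 -0.27 for Cd14 and 0.18 for Irak4 (adjusted p = 0.55 and 0.74). For Tirap and Ticam1 the differences were log2 0.08 and 0.18 (adjusted p = 0.91 and 0.81), and without that library log2 0.04 and -0.09. Traf6 had 12.7, 11.3 and 18.6 CPM with DI+LPS, above LPS replicates 1 and 2 and below replicate 3 (log2 -0.36 ± 0.78, adjusted p = 0.8). Without LPS replicate 3 Traf6 was called higher with the compound (log2 1.93, adjusted p = 0.011), so its direction rests on that library. Then 3 genes were called, 2 higher and 1 lower. Every LPS library was less deep (955718 to 3761119 counts) than every DI+LPS library (4032466 to 5959474 counts), and the part of depth in these differences was not tested.

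**Figure D4:**
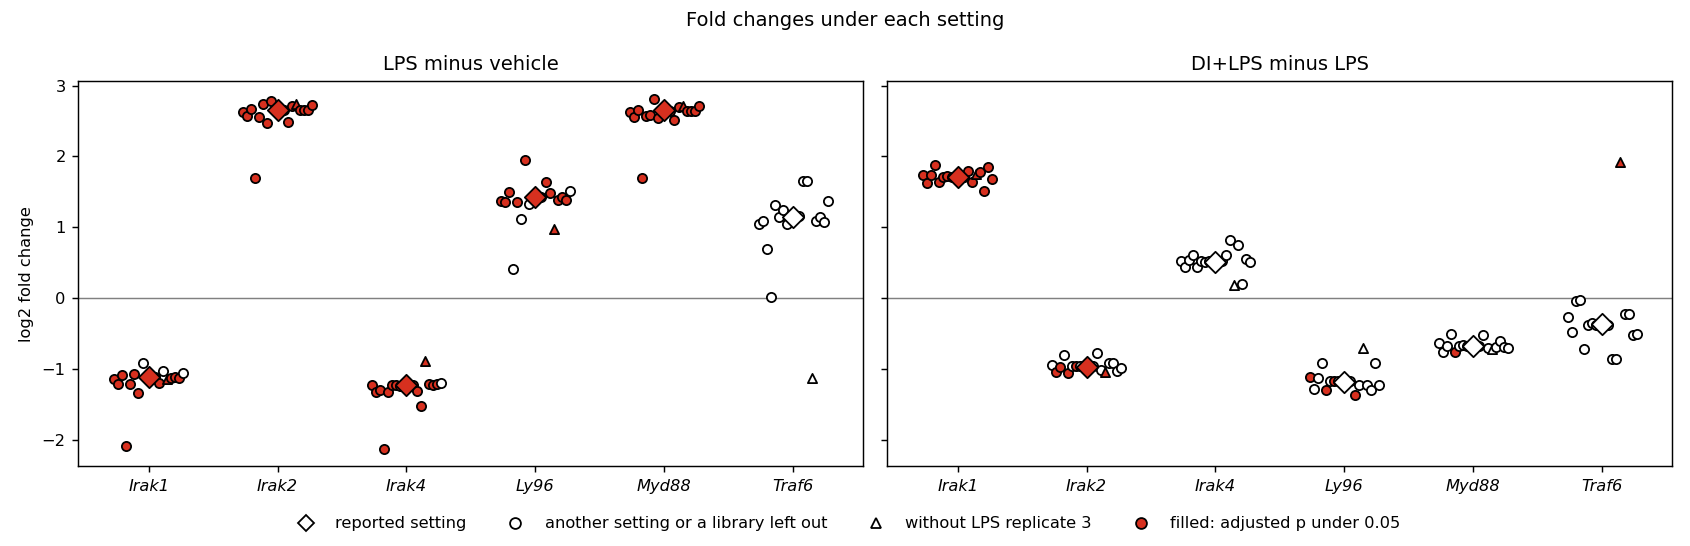
log2 fold change of 6 genes under the reported setting (diamond), under each other setting or with 1 library left out (circles) and without LPS replicate 3 (triangle), filled where the adjusted p was under 0.05, for LPS minus vehicle and DI+LPS minus LPS. All Irak1 points of the right panel are filled and lie between 1.51 and 1.88, while the Traf6 triangle is on the other side of 0 from the Traf6 diamond in both panels.

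Whether the LPS effect differed with and without the compound was tested by the interaction term. None of the 10 genes passed by edgeR at an adjusted p under 0.05, against 2.91% of all genes tested (1.39% higher and 1.52% lower). Only Irak1 was under 0.05 before adjustment. Its LPS effect was log2 1.23 ± 0.46 more positive after the compound (adjusted p = 0.16 by edgeR). DESeq2 called none of them either, and the adjusted p of Irak1 ranged from 0.083 to 0.34 over the other settings. Cd14 had a difference of log2 0.82 ± 0.45 (adjusted p = 0.36) and Ly96 of -0.89 ± 0.59 (adjusted p = 0.46). The 2 LPS contrasts and the comparison of DI+LPS with LPS share libraries, so they are not independent of each other.

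In resting cells, DI against vehicle asks what the compound did on its own. Cd14 fell, 1 of the 10 genes, against 1.51% of all genes called lower and 1.33% called higher (2.84% in all). It had 39.4, 25.4 and 40.8 CPM with DI and 115, 81.3 and 86.0 CPM in vehicle, 2.67-fold lower (log2 -1.42 ± 0.33, adjusted p = 0.022 by edgeR), with no overlap, as 16% of all genes were wholly below (30.5% apart in either direction). The call was lost when any 1 library of either group except vehicle replicate 2 was left out (adjusted p from 0.059 to 0.15), although the difference stayed between log2 -1.53 and -1.22. The summed level of the 8 macrophage markers was also lower, at 5330 to 7598 CPM in vehicle and 3242 to 4290 CPM with DI. With LPS, where Cd14 was higher than in vehicle, that sum was 4437 to 4715 CPM. The summed level of 7 neutrophil markers was 254 to 330 CPM in vehicle and 141 to 235 CPM with DI. Such sums do not show which markers moved, since 1 abundant gene can set them. The part of these markers in the Cd14 result was not tested.

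The other genes did not pass in resting cells. Irak2 was at 11.9 ± 2.10 CPM with DI and 18.9 ± 4.88 CPM in vehicle (log2 -0.68 ± 0.30, adjusted p = 0.32 by edgeR), and Irak3 had 12.1, 27.4 and 33.5 CPM against 25.5, 34.7 and 52.2 CPM (log2 -0.62 ± 0.38, adjusted p = 0.51). Irak1 was at 102 ± 24.1 and 73.5 ± 22.8 CPM with overlapping groups (log2 0.47 ± 0.32, adjusted p = 0.56). Ticam1 and Tirap had every DI library above every vehicle library, as 14.6% of all genes did, at 16.1 ± 1.06 against 9.97 ± 1.36 CPM and 15.2 ± 0.579 against 11.8 ± 2.70 CPM (adjusted p = 0.47 and 0.72). Myd88 was at 37.4 ± 3.90 and 45.6 ± 9.21 CPM, Ly96 at 69.1 ± 15.9 and 85.3 ± 47.6 CPM, Irak4 at 61.9 ± 6.81 and 64.4 ± 0.525 CPM, and Traf6 at 8.63 ± 1.71 and 8.36 ± 1.42 CPM. The log2 differences of these 4 were -0.28, -0.30, -0.06 and 0.06, with adjusted p from 0.72 to 0.98.

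Experiment 2 asks whether macrophages that cannot make itaconate differ after 24 h of LPS with IFNg. Without a term for replicate number none of the 10 genes passed (edgeR), against 0.0632% of all 9491 genes tested (0.0105% higher and 0.0527% lower), and 1, Irak3, was under 0.05 before adjustment. The groups of all 10 genes overlapped, while 6.13% of all genes had every Irg1-/- library above every WT library and 7.23% below (13.4% in all). Same-numbered Irg1-/- and WT libraries deviated together from their group means, and with replicate number as a block Irak3 was called higher and Cd14 lower in Irg1-/-, against 2.9% and 3.36% of all genes called higher and lower in that fit (6.26% in all). Irak3 had 81.3, 56.6 and 74.6 CPM in Irg1-/- and 57.3, 40.2 and 38.8 CPM in WT. The groups overlapped by a narrow margin, Irg1-/- replicate 2 being just below WT replicate 1, and each knockout library was above its same-numbered partner. The fold change was 1.57 in both fits (log2 0.65 ± 0.23 and adjusted p = 0.57 without the block, 0.65 ± 0.14 and adjusted p = 0.0019 with it, by edgeR). Cd14 had 137, 124 and 183 CPM in Irg1-/- and 187, 182 and 232 CPM in WT, lower in 3 of 3 pairs (log2 -0.44 ± 0.21 and adjusted p = 0.73 without the block, -0.45 ± 0.11 and adjusted p = 0.0053 with it). The block leaves 2 residual degrees of freedom, and DESeq2 without a block called neither gene.

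**Figure D5:**
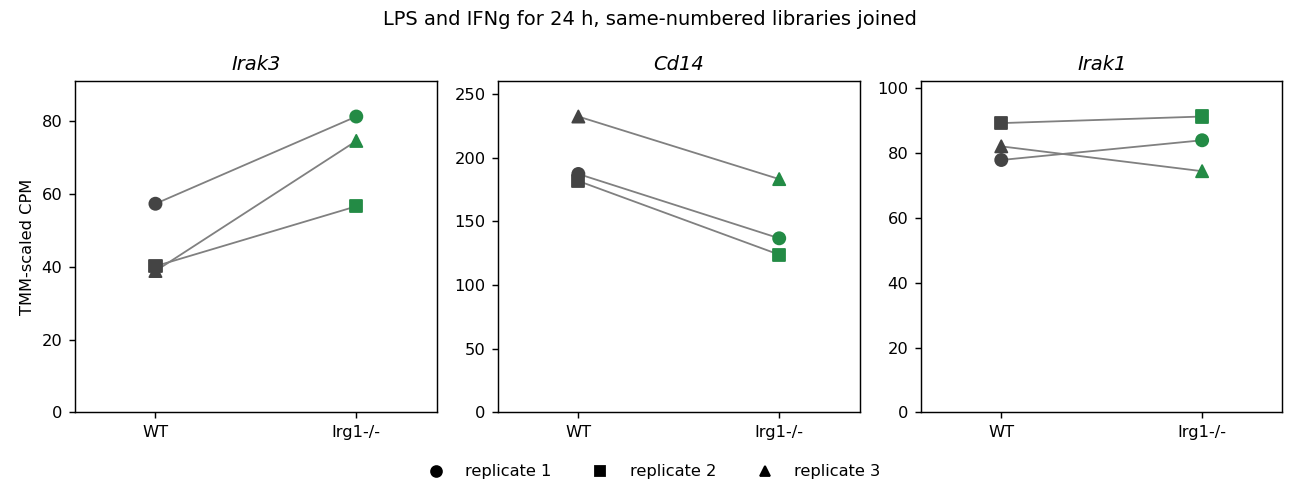
TMM-scaled CPM of Irak3, Cd14 and Irak1 in WT and Irg1-/- libraries after LPS and IFNg for 24 h, with lines joining libraries of the same replicate number. Irak3 rises along all 3 lines and Cd14 falls along all 3, while Irak1 goes up in 2 pairs and down in 1. Myd88 and Irak4, not drawn, also went the same way in all 3 pairs.

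The remaining 8 genes passed in neither fit of experiment 2. Irak1 was at 83.2 ± 8.46 CPM in Irg1-/- and 83.1 ± 5.76 CPM in WT (log2 0.00 ± 0.18, adjusted p = 1 by edgeR), and its share of IRAK counts was 28.0% to 34.6% and 32.5% to 33.3%. Irak2 was at 61.9 ± 2.78 and 68.4 ± 11.2 CPM (log2 -0.15 ± 0.19, adjusted p = 0.96). Irak4, Myd88, Ly96, Tirap, Ticam1 and Traf6 had log2 differences from -0.30 to 0.12 without the block (adjusted p from 0.94 to 0.99). Myd88 was higher in Irg1-/- in 3 of 3 same-numbered pairs and Irak4 in 0 of 3. Agreement of all pairs was thus not particular to Irak3 and Cd14, and its share over all genes was not counted. Ticam1, with the most negative of these, was at 15.9 ± 3.96 and 19.6 ± 2.43 CPM, and Myd88, with the most positive, at 72.7 ± 13.7 and 66.8 ± 11.4 CPM. Ly96 was at 51.1 ± 11.7 and 53.6 ± 11.4 CPM, Tirap at 29.6 ± 5.89 and 30.4 ± 5.91 CPM, Irak4 at 51.9 ± 5.56 and 55.5 ± 6.89 CPM, and Traf6 at 9.63 ± 3.81 and 9.82 ± 3.07 CPM. Irak3 made up 29.7%, 21.5% and 28.1% of IRAK counts in Irg1-/- and 23.9%, 15.0% and 15.6% in WT, in replicate order.

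Other genes of the route from TLR4 to its kinases and ubiquitin enzymes were taken as a list of 40, of which 35 were tested in experiment 1. With LPS 16 rose and 2 fell, against 16% and 18.4% of all genes tested, at a median of log2 0.72 against -0.24 for all genes. Scaled by library totals alone, which moves the median of all genes to -1.17, 8 rose and 8 fell. The largest increases with all libraries in the fit were in Tnfaip3, which encodes the NF-kB inhibitor A20, with log2 5.63 ± 0.39, Traf1 (4.92 ± 0.45), Peli1, a ubiquitin ligase that acts on IRAKs (4.37 ± 0.33), and the RNase gene Zc3h12a (2.82 ± 0.46), all with adjusted p at most 0.00011 by edgeR. Zc3h12a had 39.1, 46.6 and 156 CPM after LPS, and its value was log2 2.02 without LPS replicate 3. The Peli1 relatives Peli2 and Peli3 fell, by log2 -3.75 ± 0.48 and -2.52 ± 0.55 (adjusted p = 9.4e-06 and 0.0017). Peli3 had 13.3, 53.7 and 19.5 CPM in vehicle, and its value was log2 -1.73 without vehicle replicate 2 (adjusted p = 0.011). For DI+LPS against DI 15 were higher and 2 lower (9 and 3 with library totals alone), against 11.4% and 7.56% of all genes tested, again led by Tnfaip3 (log2 5.10), Traf1 (4.48), Peli1 (3.89) and Zc3h12a (3.01) and with Peli2 (-3.39) and Peli3 (-1.72) lower. Peli3 did not pass there without DI replicate 2 (adjusted p = 0.067) or DI+LPS replicate 1 (0.078).

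In DI+LPS against LPS, 3 of these 35 genes were higher and 4 lower (2 and 6 with DESeq2 size factors), against 8.38% and 7.53% of all genes tested, so the count says nothing particular to the list. Tlr4, the receptor itself, had 141, 128 and 133 CPM with DI+LPS and 56.0, 26.9 and 14.5 CPM with LPS, 3.87-fold higher with the compound (log2 1.95 ± 0.37, adjusted p = 0.0017 by edgeR) and with no overlap. The difference was log2 2.65 without LPS replicate 1 and 1.64 without LPS replicate 3. In vehicle libraries it was at 72.1, 46.6 and 62.9 CPM. Map3k7, the kinase TAK1 below TRAF6, and the deubiquitinase gene Otulin were 2.49-fold and 2.19-fold higher (adjusted p = 0.013 and 0.04). Lower were Traf1 (log2 -1.57 ± 0.38), Ikbke, a kinase of the interferon arm (-1.30 ± 0.30), Tab2, a TAK1 partner (-1.22 ± 0.29), and Tnfaip3 (-1.08 ± 0.32), with adjusted p from 0.006 to 0.028. Tlr4 and Ikbke were called in all 18 other settings. The list had 3 calls without DI+LPS replicate 1 and 3 without replicate 2. Tab2 lost its call without the first, Map3k7 without the second, and Traf1, Tnfaip3 and Otulin without either. Tnfaip3 lost it also without LPS replicate 1, and Otulin without LPS replicate 2, DI+LPS replicate 3, vehicle replicate 1 or 3, or DI replicate 2. With only these 2 groups in the fit Map3k7, Otulin and Tnfaip3 did not pass (adjusted p = 0.088, 0.13 and 0.067), nor did Otulin with DESeq2 size factors (0.055) or Tnfaip3 with library totals (0.087). In resting cells 1 of the 35 was called, against 2.84% of all genes tested. It was Ikbke, at 12.7 ± 2.04 CPM with DI and 46.5 ± 5.50 CPM in vehicle (log2 -1.87 ± 0.31, adjusted p = 0.0015 by edgeR). In Irg1-/- against WT none of 36 was called without the block. With it 2 were higher and 2 lower, against 2.9% and 3.36% of all genes. Ly86, which encodes a partner of the TLR4 relative CD180, was higher (log2 0.86 ± 0.13, adjusted p = 4.5e-06), as was Ikbke (0.52 ± 0.15, adjusted p = 0.03). Traf1 and Irf5 were lower there (log2 -0.52 and -0.35, adjusted p = 0.02 and 0.04).

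Genes with the profile closest to a member over the 12 libraries of experiment 1 were ranked by Pearson r of log2(CPM + 1), as a description, since the libraries share their treatment groups. For Cd14 they were Spi1, Adar and Trex1 (r = 0.983, 0.982 and 0.98). For Irak2 they were Parp11, Slfn1 and Zbp1 (r = 0.989, 0.989 and 0.988). For Irak3 they were Birc3, Dyrk2 and Helz2 (r = 0.96, 0.951 and 0.945).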

How the data were processed

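3′ end RNA sequencing of 18 macrophage libraries (12 in experiment 1, 6 in experiment 2) was analysed from the authors' deposited tables of raw counts per Entrez gene. Per the labels' protocols, libraries were made with barcoded oligo-dT primers and are strand-specific. The submitters' processing notes name STAR, HTSeq, DESeq2 and mm10, and the sources used here give no versions, annotation or counting options. No molecular identifiers are described, so intervals and floors (3 counts) cover counting error only. Symbols and coordinates are from RefSeq GRCm38.p6, which matched 23969 of 24052 identifiers. Without a stated strand option, reads of overlapping exons cannot be assigned with certainty: by GENCODE M21, Myd88 shares 290 exonic bases with Acaa1a, Irak3 192 with Tmbim4, Irak2 196 with Gm43963, and Tirap 446 with Gm39318 and 39 with Srpr, all on the opposite strand.

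The tests came from edgeR 4.0.16 under R 4.3.3, separately for each experiment (TMM, filterByExpr with a minimum count of 10, quasi-likelihood F test, 2-sided, prior count 0.125). A mean per group was fitted, over all 4 groups of experiment 1 together, and calls are at an adjusted p under 0.05 over all genes tested. Standard errors are the fold change divided by the root of F. DESeq2 1.42.0 was an alternative, as were its size factors, no filter, only 2 groups, a replicate block, each library left out, and, added after seeing the data, library totals as the only scaling. Ratios of 2 genes used 0.5 added to each count. On simulated data for DI against vehicle, over 9892 genes, the test recovered 10% of genes changed 2-fold and 68% of those changed 4-fold; for Irg1-/- against WT, over 9344 genes, it recovered 33% and 95%. Of the calls made there 9.3% and 3.76% were of unchanged genes. The treatment text of the WT libraries of experiment 2 names Irg1-/- cells, so genotype was taken from the sample titles. Labels do not say whether replicates are separate animals or cultures, so p-values measure the spread between these libraries. In experiment 2 all 3 same-numbered pairs deviated together (r = 0.354 to 0.455), and the numbers were taken to pair the libraries. The 10 genes, the pathway list, the motifs and the tests were chosen with earlier results of these data known. All 10 genes were described in each comparison, and of the pathway list at most the 4 with the largest change among those called in each direction. In the blocked fit all called genes of that list were named, which was chosen after their values were seen.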

Additional observations from a re-analysis of the deposited data

How the results depend on the processing

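The calls of Cd14, Myd88, Irak2 and Irak3 in LPS against vehicle and in DI+LPS against DI, and of Irak1 in DI+LPS against LPS, held in every setting run. With only the 2 compared groups, 4 of the 10 genes were called for LPS against vehicle (5 to 7 without 1 library) and 1 for DI+LPS against LPS. The latter count was 1 with library totals, 4 by DESeq2 and 1 to 3 without 1 library; that of DI against vehicle was 0 to 1 without 1 library. Among pathway genes DESeq2 called 11 for DI+LPS against LPS (4 with only those 2 groups in edgeR) and 1 for the interaction; without LPS replicate 3 the test called 2 for DI against vehicle. Over all genes the calls for LPS against vehicle went from 3529 to 2108 with 2 groups and 5798 with library totals, and for DI+LPS against LPS from 1636 to 653 with 2 groups. In experiment 2 the replicate block took the calls from 0 to 2 members, 0 to 4 pathway genes and 6 to 594 of all genes. In experiment 1 replicate numbers did not pair the libraries by the criterion used (6 of 18 same-numbered pairs above a correlation of 0.1), and the block left the member counts at 7, 1, 2, 4 and 0. By another measure, the best match of a library in another group had its own number in 18 of 36 cases, against 6 of 6 in experiment 2. With 3 libraries in each group, random matching would give 1 in 3. The share in experiment 1 was above that, so some pairing there is possible. 

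Changes of sign were confined to results that had not passed in the reported fit. With library totals alone the log2 values became -0.371 for Ticam1 and -0.147 for Tirap (LPS against vehicle), -0.128 for Traf6 (DI against vehicle), 0.158 for Irak3 (DI+LPS against LPS), -0.028 for Ly96, -0.538 for Ticam1, -0.052 for Tirap and -0.486 for Irak1 (DI+LPS against DI), 0.095 for Tirap, 0.084 for Irak2 and 0.107 for Traf6 (interaction) and 0.011 for Tirap (Irg1-/- against WT). DESeq2 and its size factors gave -0.098 for Ticam1, and -0.029 and -0.028 for Irak1, in DI+LPS against DI. The replicate block gave 0.001 for Irak3 in DI+LPS against LPS and -0.003 for Irak1 in Irg1-/- against WT. Without 1 library, values ranged as follows. In LPS against vehicle Traf6 ran from -1.135 to 1.654. In DI against vehicle Ly96 ran from -0.6 to 0.236 and Traf6 from -0.109 to 0.188. In DI+LPS against LPS Ticam1 ran from -0.092 to 0.405, Tirap from -0.006 to 0.237, Irak3 from -0.24 to 0.173 and Traf6 from -0.858 to 1.927. In DI+LPS against DI Ticam1 ran from -0.091 to 0.149 and Irak1 from -0.093 to 0.23. The interaction of Traf6 ran from -0.946 to 1.84. In Irg1-/- against WT Ly96 ran from -0.184 to 0.112, Myd88 from -0.016 to 0.275, Tirap from -0.165 to 0.112, Irak1 from -0.069 to 0.089 and Traf6 from -0.42 to 0.233. Only the fits without 1 library have fewer libraries. With library totals the median log2 value of all genes for LPS against vehicle moved from -0.236 to -1.169. The cause of the changes of sign was not tested. Ticam1 and Irak4 rested on 3 and 5 counts in LPS replicate 3, which limits their precision there.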
